A study of Mus musculus with 4 samples.

Results

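The genes described here are 10 products of inflammatory monocytes, Saa3, Hp, Chil3, Fn1, Tgfbi, Thbs1, Vcan, F10, F13a1 and Plac8, taken from all gene rows of a single-cell RNA-seq series of mouse liver. They were chosen by symbol, most of them because they led the genes of monocytes in these same data, so their level in monocytes against other cells is a description and supports nothing. Each symbol matched 1 protein-coding gene. On build GRCm38 the acute-phase and chitinase-like genes lie at chr7:46711998-46715700 (Saa3, ENSMUSG00000040026), chr8:109575128-109579172 (Hp, ENSMUSG00000031722) and chr3:106147554-106167564 (Chil3, ENSMUSG00000040809). The matrix genes lie at chr1:71585520-71653200 (Fn1, ENSMUSG00000026193), chr13:56609523-56639562 (Tgfbi, ENSMUSG00000035493), chr2:118111876-118127133 (Thbs1, ENSMUSG00000040152) and chr13:89655312-89742509 (Vcan, ENSMUSG00000021614). The coagulation genes lie at chr8:13037308-13056676 (F10, ENSMUSG00000031444) and chr13:36867178-37050244 (F13a1, ENSMUSG00000039109), and Plac8 (ENSMUSG00000029322) at chr5:100553725-100572245.

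The study compared liver immune cells in a model of hepatocellular carcinoma between genotypes that lack a brake on NF-kB signalling, the microRNA miR-146a, alone or together with the chemokine Ccl5. CD45+ cells were sorted from the livers of female C57BL/6 mice and made into 10x Genomics 5′ libraries, 1 library per group. In the model, diethylnitrosamine (DEN), a liver carcinogen, was injected into the peritoneum at day 14 of age at 25 mg/kg, and mice weaned at 21 days went onto a choline-deficient diet with 60% fat (CDHFD). The young WT library came from mice about 8 weeks old that had neither. The other libraries came from 36-week-old DEN CDHFD mice that were WT, miR146-/-, or miR146-/- Ccl5-/- (DKO). Both deletions are in every cell of the mouse, so a difference in monocytes need not start in monocytes, and the labels do not say how many mice entered a library. Age, DEN and diet differ together between the young and the DEN CDHFD WT libraries, and their parts cannot be told apart.

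Classical monocytes are blood cells with high Ly6C and the chemokine receptor Ccr2 that enter injured tissue and become macrophages. Patrolling monocytes have little Ly6C and survey the vessel wall, and intermediate cells carry marks of both. On entry, inflammatory monocytes secrete acute-phase proteins, provisional matrix such as fibronectin, and clotting factors. Some of these products, such as haptoglobin, otherwise come largely from hepatocytes in the liver.

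Promoters of Saa3 and Chil3 are shown because, in classical monocytes, Saa3 gave the largest ratio between genotypes and Chil3 the largest between the WT libraries. RefSeq's table of 300-base promoters on GRCm38.p6 (250 bases before the start, 50 after) held 9 entries for 7 of the 10 genes and none for Fn1, Thbs1 or Hp. Each entry was searched on both strands for TTGCNNAA (C/EBP), GGNNTTTCC (NF-kB), GAGGAAGT (PU.1) and TATAAA. In all 32851 promoters these were found in 10.8%, 5.82%, 3.20% and 13.6%. The Saa3 promoter (chr7:46715627-46715926, minus strand) held 1 C/EBP and 1 NF-kB match, both on the opposite strand and in capitals as TTATGCAA and GGAAATGCC. The Chil3 promoter (chr3:106167515-106167814, minus strand) held TATAAA, in capitals.
Saa3: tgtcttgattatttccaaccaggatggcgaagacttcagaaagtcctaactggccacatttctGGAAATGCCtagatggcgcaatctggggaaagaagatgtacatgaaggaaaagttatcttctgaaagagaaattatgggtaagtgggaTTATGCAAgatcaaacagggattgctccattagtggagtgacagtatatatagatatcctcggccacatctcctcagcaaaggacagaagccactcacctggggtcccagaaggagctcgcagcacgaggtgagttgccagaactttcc
Chil3: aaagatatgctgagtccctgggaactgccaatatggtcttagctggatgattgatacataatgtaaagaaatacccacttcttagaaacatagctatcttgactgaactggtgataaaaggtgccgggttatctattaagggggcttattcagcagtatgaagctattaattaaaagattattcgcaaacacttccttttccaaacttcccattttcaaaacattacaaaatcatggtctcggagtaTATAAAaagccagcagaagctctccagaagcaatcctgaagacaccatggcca
F13a1 had an NF-kB and a PU.1 match in 1 of its 2 entries, and Plac8 had an NF-kB match in 1 entry and a C/EBP match in the other. F10, Tgfbi and Vcan had none of the 4 motifs, which says only that these letters are not in this window. A match is a description of the sequence and not a bound site.

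The 4 libraries held 10985 (young WT), 9120 (DEN CDHFD WT), 8393 (miR146-/-) and 10623 (DKO) cell barcodes with 90756272, 103165826, 88706063 and 103147246 unique molecular identifiers (UMIs). After a filter on features and mitochondrial UMIs, 10283, 8329, 7824 and 9850 cells were kept, with medians of 6782, 8210, 7910 and 7558 UMIs. The deleted Ccl5 was read first: it had 6174, 12544 and 12496 CPM (UMIs scaled to a common total per sum) in the kept cells of the first 3 libraries and 65.4 CPM in the DKO library. These values go with the labels. No row of the tables counts miR-146a, so that deletion has no such check. Between 96 and 127 kept barcodes were shared by each pair of libraries, and 648 (1.82%) stood in more than 1.

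Cells were classed by marker UMIs that include none of the 10 genes. Monocytes had at least 5 Lyz2 UMIs and no UMI of the T, B and NK genes used. Classical cells had at least 2 Ly6c2 UMIs, 1 of Ccr2 and fewer than 2 of the patrolling genes Ace, Treml4, Adgre4 and Eno3 together. Intermediate cells had at least 2 of Ly6c2 and 2 of the patrolling genes, and patrolling cells the latter without the former. In the order young WT, DEN CDHFD WT, miR146-/-, DKO, which is kept throughout, classical cells numbered 11, 19, 57 and 44, with medians of 11682, 10535, 19535 and 18124.5 UMIs. The intermediate gate held 31, 114, 229 and 342 cells, and the patrolling gate 58, 123, 536 and 844. The classical sums rest on few cells. The size of the intermediate class depends on depth, and its cells had medians of 10932, 12586.5, 19700 and 18922.5 UMIs. With each cell first thinned at random to 2000 UMIs, the intermediate gate held 16, 40, 38 and 50 cells. The classical gate then held 21, 35, 71 and 74.

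Marker genes not used by the gates were read in the same sums. The 5 patrolling checks, led by Nr4a1 (also an immediate-early gene), summed to 2860.05, 1582, 2707 and 2483 CPM in patrolling cells against 956, 1245, 663 and 816 CPM in classical cells, where Cd300e was at 0 in both WT libraries. Of 5 macrophage checks 4, 5, 5 and 5 had UMIs in classical sums (Cd63 was at 0 in young WT), at 783, 3139.8, 512 and 732 CPM, with Apoe first in each and at 2825 CPM in DEN CDHFD WT. Their part in the results was not tested.

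Some features set libraries apart before any of the 10 genes is read. Many Lyz2+ cells also carried lymphoid transcripts, which is what a droplet with 2 cells gives: 373, 1189, 802 and 805 cells, or 44.2%, 62.5%, 37.4% and 27.8% of all Lyz2+ or myeloid cells. They held a median of 16, 20, 14.5 and 12 Cd3 UMIs and were left out of the monocyte classes. Among them, 173, 613, 376 and 300 had at least 2 Ly6c2 UMIs. Cells with at least 10 S100a8 and S100a9 UMIs were absent from the classical gate of both WT libraries but made up 17 of 57 cells in miR146-/- and 13 of 44 in DKO. In the intermediate gate they were 27 of 229 and 34 of 342. Of 4 neutrophil checks, 3, 3, 4 and 3 had UMIs in classical sums, at 166, 126, 203 and 197 CPM, with Csf3r first in the WT libraries, Mmp8 first in the other 2, and Ly6g at 0 in all but miR146-/-. Whether these are monocytes, young neutrophils or droplets of both cannot be told apart here. A list of 8 immediate-early genes (Fos, Fosb, Jun, Junb, Egr1, Nr4a1, Ier2 and Atf3), added after the data were seen, summed to 13068, 9124, 4499 and 5078 CPM in classical cells and 5732, 4326, 2123 and 2559 CPM in B cells, so the miR146-/- and DKO libraries were low in unrelated cell types too.

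**Figure D1:**
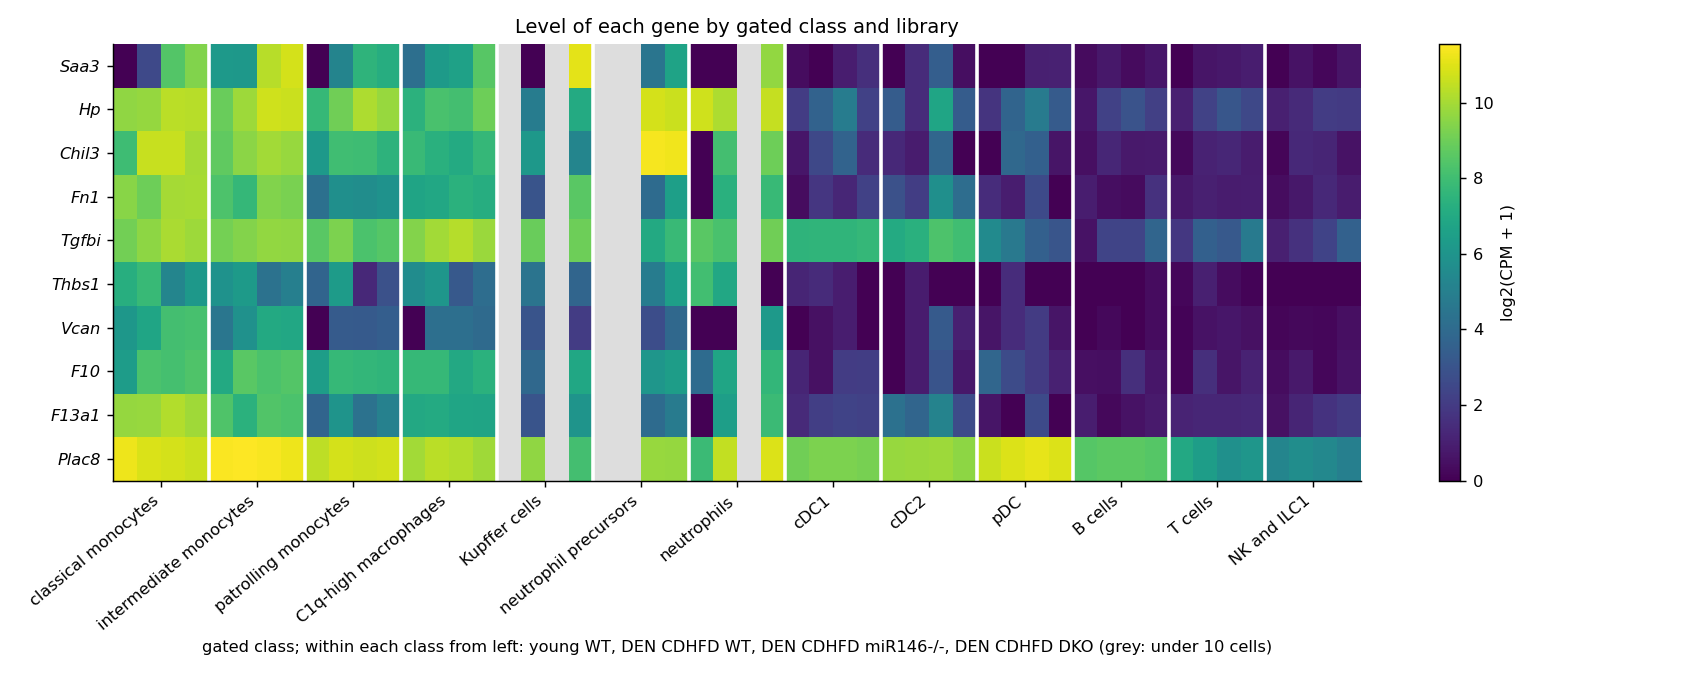
Level of each gene as log2(CPM + 1) in 13 gated classes, with the 4 libraries side by side within each class. Most genes are brightest in classical and intermediate monocytes and near 0 in B, T and NK cells, while Plac8 stays bright in pDC and visible in B cells.

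Across classes of at least 10 cells, 4 of the 10 genes were highest in the same class in every library: Fn1, F13a1 and Vcan in classical monocytes, with intermediate monocytes second, and Plac8 in intermediate monocytes. F10 was first in intermediate cells in the 3 DEN CDHFD libraries, with classical cells second and overlapping intervals in each, and in C1q-high macrophages in young WT (216 CPM). Tgfbi led in C1q-high macrophages in 3 libraries (676, 983 and 1232 CPM) and in classical cells in DKO, where 939.7 CPM against 913 CPM in macrophages overlap in their intervals (875 to 1008 and 878 to 949). Chil3 led in neutrophil precursors of miR146-/- (2729.97 CPM) and DKO (2550.1 CPM), and Hp in neutrophils of both WT libraries (1683 and 1109 CPM) and in neutrophil precursors of miR146-/- (1806 CPM). Saa3 led in C1q-high macrophages of DEN CDHFD WT (76.6 CPM, against 70.3 CPM in intermediate cells) and in Kupffer cells of DKO (2170.3 CPM, all from 1 of 27 cells). Thbs1 led in neutrophils of young WT (262 CPM, against 151 CPM in classical cells) and in other Lyz2+ cells of DKO (184 CPM). The young neutrophil sum was shallow, at 64764 UMIs from 17 cells. B cells, which should lack all but Plac8, had at most 12.8 CPM of the other genes. Plac8 reached 358 to 404 CPM in B cells and 1579 to 2204 CPM in plasmacytoid dendritic cells.

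Saa3 encodes an acute-phase serum amyloid A made by myeloid cells. In intermediate monocytes it stood at 75.2, 70.3, 1256 and 1774 CPM, with 95% Poisson intervals of 50.7 to 107, 57.6 to 85.0, 1224 to 1289 and 1742 to 1806. Classical monocytes had 0, 4.85, 357 and 655 CPM, where 0 of 132843 UMIs in the young library has a floor of 3 counts at 22.6 CPM and a Poisson bound of 27.8 CPM. Patrolling cells had 0, 35.7, 184 and 145 CPM, with a floor of 6.18 CPM in the young library. Both WT libraries were low and both libraries without miR-146a were high in every gate, with no overlap of intervals between the pairs. The miR146-/- over DEN CDHFD WT ratio was 4.15 on the log2 scale in intermediate cells (3.88 to 4.45, 17.8-fold). It was 2.35 in patrolling cells (1.94 to 2.82) and 5.62 in classical cells (3.72 to 11.51), the last from 1 UMI in the WT sum. In patrolling cells 33 of the 47 WT UMIs were in 1 cell. Without the top cell of each library the patrolling ratio was 3.68 (142 against 10.7 CPM) and the intermediate ratio 4.65.

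Few cells carried much of the Saa3. All 30 UMIs of young intermediate cells were in 1 cell, and 107 UMIs of DEN CDHFD WT were in 18 of 114. In miR146-/- 130 of 229 cells had a UMI, and 19 held 50% of the 5714 UMIs. For DKO, 220 of 342 cells had one, and 32 held 50% of 11880. The classical sum was narrower: 2 of 57 miR146-/- cells held 50% of 377 UMIs, and 350 of the 377 were in the S100a8- and S100a9-rich cells. Without those cells miR146-/- classical Saa3 was 38.3 CPM and DKO 787 CPM, miR146-/- over WT was 2.42 with no library at the minimum of 50 CPM, and DKO over miR146-/- became 4.34 on the log2 scale. In intermediate cells without them the levels were 1054 and 1447 CPM. These cells were set apart after the data were seen.

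**Figure D2:**
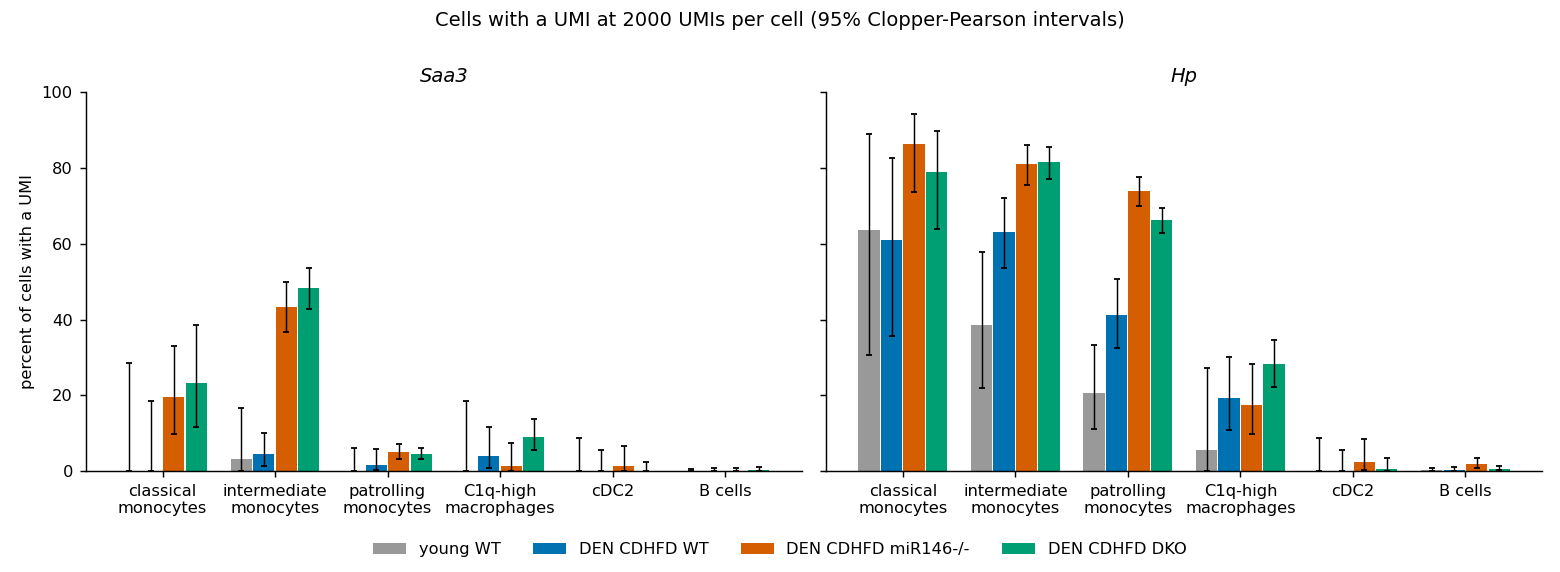
Percent of cells with a UMI of Saa3 (left) or Hp (right) after every cell was thinned to 2000 UMIs, per class and library, with Clopper-Pearson 95% intervals. Saa3 in intermediate monocytes was at 3.23% and 4.39% in the WT libraries and 43.2% and 48.2% in the others, while B cells had at most 0.288%.

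With every cell thinned to 2000 UMIs, which left out no intermediate cell, Saa3 was in 3.23%, 4.39%, 43.2% and 48.2% of intermediate cells, with Clopper-Pearson intervals of 0.0816 to 16.7, 1.44 to 9.94, 36.7 to 49.9 and 42.8 to 53.7. Unthinned, the shares were 3.23%, 15.8%, 56.8% and 64.3%, at medians of 10932, 12586.5, 19700.0 and 18922.5 UMIs. B cells, which serve as the level of free RNA, had 0.0923%, 0.156%, 0 of 450 and 0.288% at medians of 5588.5, 6803, 7085 and 6641 UMIs, with 13, 10, 0 and 6 shallower cells left out. For the 0, the floor of 3 counts is a share of 0.667% and the Clopper-Pearson bound 0.816%. Of C1q-high macrophages, 0 of 18 (floor 16.7%, bound 18.5%), 4.11%, 1.35% and 9.09% had a UMI.

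Hp encodes haptoglobin, which binds free haemoglobin. Its level in intermediate cells was 486, 926, 1677 and 1591 CPM, with intervals of 420.0 to 559, 879 to 976, 1640 to 1715 and 1561 to 1621. In patrolling cells it was 216, 530 and 1139 CPM up to miR146-/-, and 886 CPM in DKO. Classical cells gave 790.4, 838, 1295 and 1280.1 CPM. Each gate thus had its lowest value in the young library and its highest in miR146-/-, although in classical cells the 2 WT libraries overlap and DKO over miR146-/- was -0.02 (-0.13 to 0.10). Past 2-fold were only the patrolling ratios, 1.29 on the log2 scale for DEN CDHFD WT over young WT (1.00 to 1.60) and 1.10 for miR146-/- over WT (0.99 to 1.22). Without the top cell of each library, DEN CDHFD WT over young WT in intermediate cells moved from 0.93 to 1.04, past 2-fold. Thinned patrolling cells with a UMI of Hp made up 20.7%, 41.3%, 73.9% and 66.3% (0, 2, 18 and 10 cells left out), against 0.277%, 0.312%, 1.78% and 0.576% of B cells. Unthinned shares of patrolling cells were 51.7%, 59.3%, 86.9% and 85.0% at medians of 7308.5, 10048, 7191.5 and 6919 UMIs. Hepatocytes are the main source of haptoglobin. Of 10 hepatocyte markers 8, 9, 10 and 9 had UMIs in patrolling sums, together 148, 143, 54.1 and 68.8 CPM, mostly Trf, and Serpina1a was at 0 in all but miR146-/-. The part of hepatocyte RNA in the Hp difference was not tested.

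Chil3 encodes a chitinase-like lectin of myeloid cells. The classical level was 248, 1526, 1547 and 1026 CPM, with intervals of 171 to 349, 1362 to 1705, 1473 to 1624 and 958 to 1098. Only the young library was low, and its 33 UMIs included 17 from 1 of 11 cells. The DEN CDHFD WT over young WT ratio was 2.60 (2.10 to 3.18, 6.06-fold) in classical, 0.83 (0.60 to 1.08) in intermediate and 1.79 (1.31 to 2.34) in patrolling cells. In young intermediate cells 75 of 170 UMIs were in 1 cell, and without the top cell of each library the intermediate ratio was 1.495 (734 against 259 CPM), past 2-fold. For miR146-/- over WT the classical ratio was 0.02 (-0.16 to 0.20). The classical difference between the WT libraries depends on the gate: with lymphoid transcripts allowed it was 0.12, and with the gate set after thinning to 2000 UMIs 0.63. In the S100a8- and S100a9-rich classical cells Chil3 was at 2307 (miR146-/-) and 2067 (DKO) CPM, and without them at 1171 and 556 CPM, which puts DKO over miR146-/- at -1.07. Chil4, a near-identical gene, had 1 UMI over all 4 classical sums, so how reads were split between the 2 is uncertain.

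**Figure D3:**
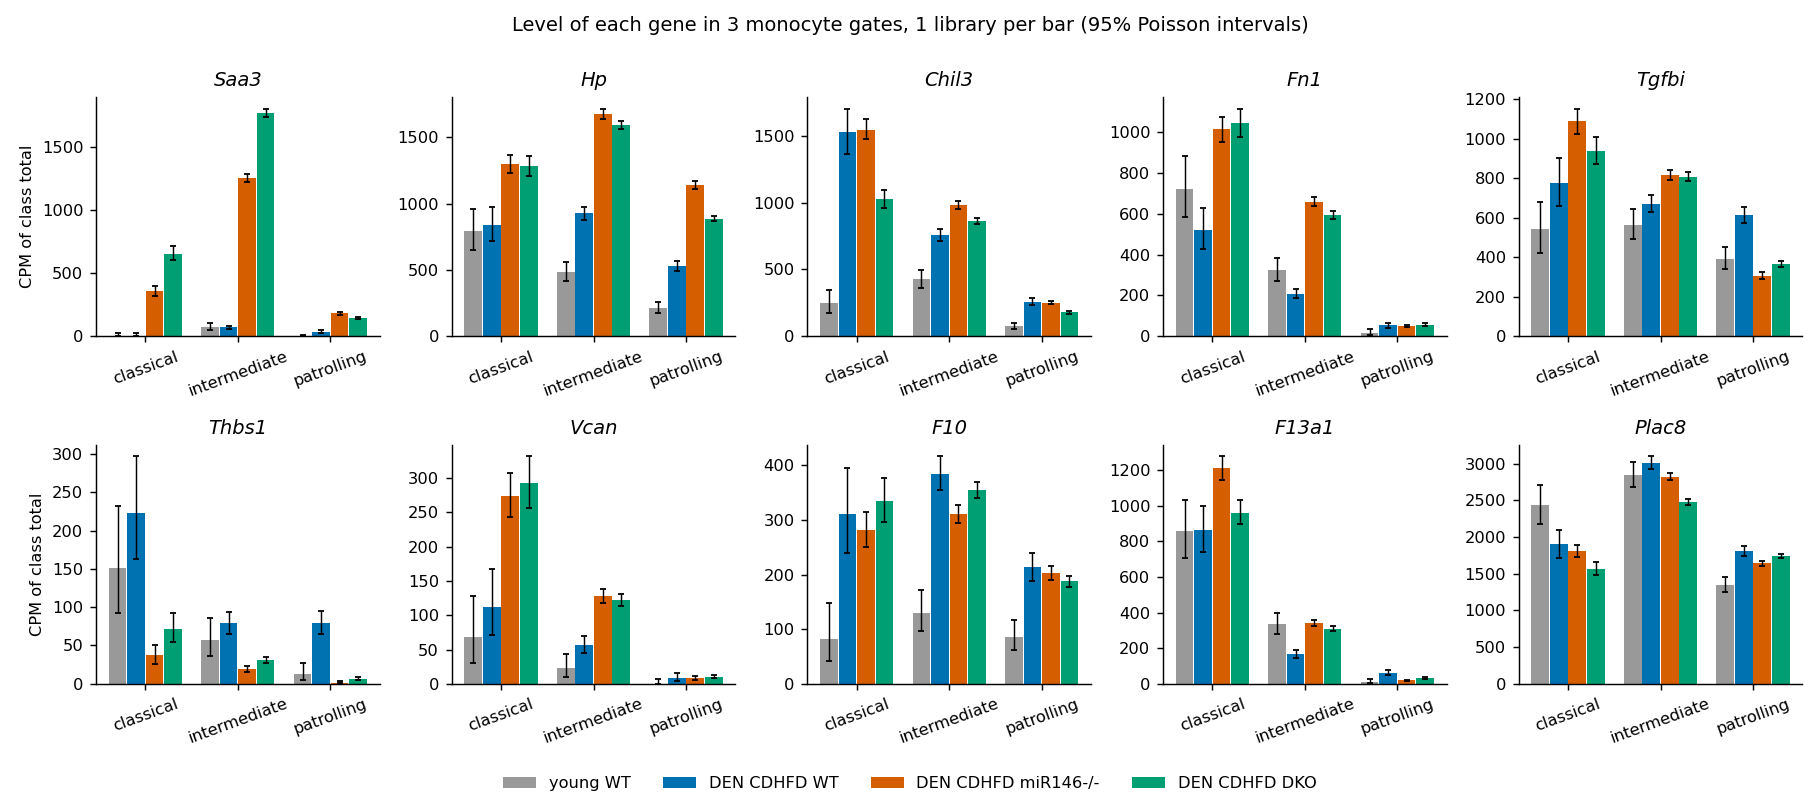
CPM of each gene in classical, intermediate and patrolling monocytes, 1 bar per library, with exact Poisson 95% intervals for counting error. Saa3 is high only in the miR146-/- and DKO libraries, Chil3 is low in young WT, and Thbs1 is highest in DEN CDHFD WT.

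Among the matrix genes, Fn1 encodes fibronectin, the scaffold of provisional matrix. Intermediate cells had 323, 208, 658 and 592 CPM, with intervals of 270 to 384, 186 to 233, 635 to 682 and 573 to 610. The classical level was 723, 518, 1012 and 1042 CPM, whereas patrolling cells had 57.5 CPM at most. Fn1 was lowest in DEN CDHFD WT and highest in the libraries without miR-146a in both Ly6c2+ gates. The miR146-/- over WT ratio was 1.66 (1.49 to 1.83, 3.16-fold) in intermediate cells and 0.96 (0.68 to 1.27) in classical cells, just inside 2-fold. With TMM factors the classical ratio was 1.04, and without the top cell of each library 1.20, both past it. The intermediate ratio was 0.84 when the gate was set after thinning.

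Vcan encodes versican, a large matrix proteoglycan. Classical cells had 67.7, 111, 275 and 293 CPM, with intervals of 31.0 to 129, 70.6 to 167, 244 to 308 and 257 to 332. Intermediate cells had 22.5, 55.9, 128 and 122 CPM. The libraries without miR-146a were above both WT libraries in both gates, and the 2 WT libraries overlapped in classical cells. For miR146-/- over WT the ratio was 1.27 (0.69 to 1.98) in classical and 1.18 (0.86 to 1.54) in intermediate cells. DEN CDHFD WT over young WT gave 1.24 (0.32 to 2.49) in intermediate cells, from 9 UMIs in the young sum, and 0.75 with a prior of 5 counts. Without the top cell of each library this ratio was 1.38, but DEN CDHFD WT was at 45.8 CPM, under the minimum of 50 CPM.

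Tgfbi, a secreted integrin-binding protein induced by TGF-beta, was at 564, 672, 815 and 808 CPM in intermediate and 542, 775, 1089 and 939.7 CPM in classical cells. Patrolling cells had 393, 613, 308 and 366 CPM, with a miR146-/- over WT ratio of -0.996 (-1.12 to -0.87) that falls just short of 2-fold. None of the Tgfbi ratios in the 3 gates was past 2-fold.

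Thbs1 encodes thrombospondin-1, a matrix protein that activates latent TGF-beta and is also stored in platelets. Its level was 57.6, 78.9, 19.3 and 30.8 CPM in intermediate, 151, 223, 37.0 and 71.7 CPM in classical, and 12.4, 78.9, 1.48 and 6.30 CPM in patrolling cells. DEN CDHFD WT was highest and miR146-/- lowest in all 3, although the WT libraries overlap in the first 2. For miR146-/- over WT the ratio was -2.59 (-3.25 to -1.95) in classical, -2.03 (-2.44 to -1.62) in intermediate and -5.65 (-7.09 to -4.64) in patrolling cells, the last from 104 UMIs against 7. Of the 20 young classical UMIs, 19 were in 1 cell. Without the top cell of each library the young level was 8.25 CPM, and DEN CDHFD WT over young WT moved from 0.55 to 3.79, past 2-fold. In young intermediate cells 15 of 23 UMIs were in 1 cell, and the same step moved that ratio from 0.43 to 1.56 (65.2 against 21.0 CPM), also past 2-fold. All 6 young patrolling UMIs, and 6 of the 7 in miR146-/-, were in 1 cell. Immediate-early genes were also lower in both libraries without miR-146a, though highest in young WT: all 8 had UMIs in every monocyte sum, and they totalled 8708, 7313, 4432 and 4608 CPM in intermediate and 8238, 6701, 2969 and 3532 CPM in patrolling cells, led by Fos except where Junb (intermediate, miR146-/-) or Nr4a1 (patrolling, miR146-/- and DKO) was first. Their part in the Thbs1 difference was not tested. Platelet markers were at or near 0 in classical cells, with 3, 0, 1 and 0 UMIs over 4 genes, Pf4 first in young WT and Ppbp in miR146-/-, and Itga2b and Gp9 at 0 in all. Fibroblast markers had 0 UMIs over 6 genes in all 4 classical sums.

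Of the clotting factors, F10 encodes factor X and F13a1 the A subunit of factor XIII, which crosslinks fibrin. F10 in intermediate cells was at 130.3, 385, 311 and 354 CPM, with intervals of 97.3 to 171, 354 to 417, 295 to 328 and 340 to 369. Classical cells had 82.8, 310.1, 281 and 336 CPM and patrolling cells 86.5, 213, 203 and 188 CPM. The young library was lowest in every gate, with no overlap of intervals. DEN CDHFD WT over young WT gave 1.55 (1.15 to 2) in intermediate, 1.85 (0.97 to 2.98) in classical and 1.29 (0.83 to 1.81) in patrolling cells. The classical ratio was 0.91 with lymphoid transcripts allowed, and the intermediate ratio 0.46 with the gate set after thinning. No ratio between genotypes was past 2-fold in these gates.

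F13a1 was at 858, 862, 1211 and 962 CPM in classical cells and 336, 166, 340 and 310.3 CPM in intermediate cells, where DEN CDHFD WT was lowest. In patrolling cells the reverse held, with 12.4, 63.0, 19.2 and 33.0 CPM and DEN CDHFD WT highest. The intermediate ratios were -1.02 (-1.32 to -0.70) for DEN CDHFD WT over young WT and 1.03 (0.84 to 1.23) for miR146-/- over WT, both near the 2-fold line: the first was -0.96 with TMM factors and the second 0.96 without the S100a8- and S100a9-rich cells. The patrolling ratios were 2.24 (1.17 to 3.84) and -1.71 (-2.16 to -1.27).

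Plac8, a small cysteine-rich protein of myeloid and lymphoid cells, was the most abundant of the 10 in intermediate cells. It had 2846, 3013, 2821 and 2473 CPM in intermediate, 2431, 1899, 1804 and 1565 CPM in classical and 1351, 1806, 1639 and 1738 CPM in patrolling cells. No Plac8 ratio was past 2-fold, and the largest was 0.42 (0.29 to 0.55), for DEN CDHFD WT over young WT in patrolling cells.

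**Figure D4:**
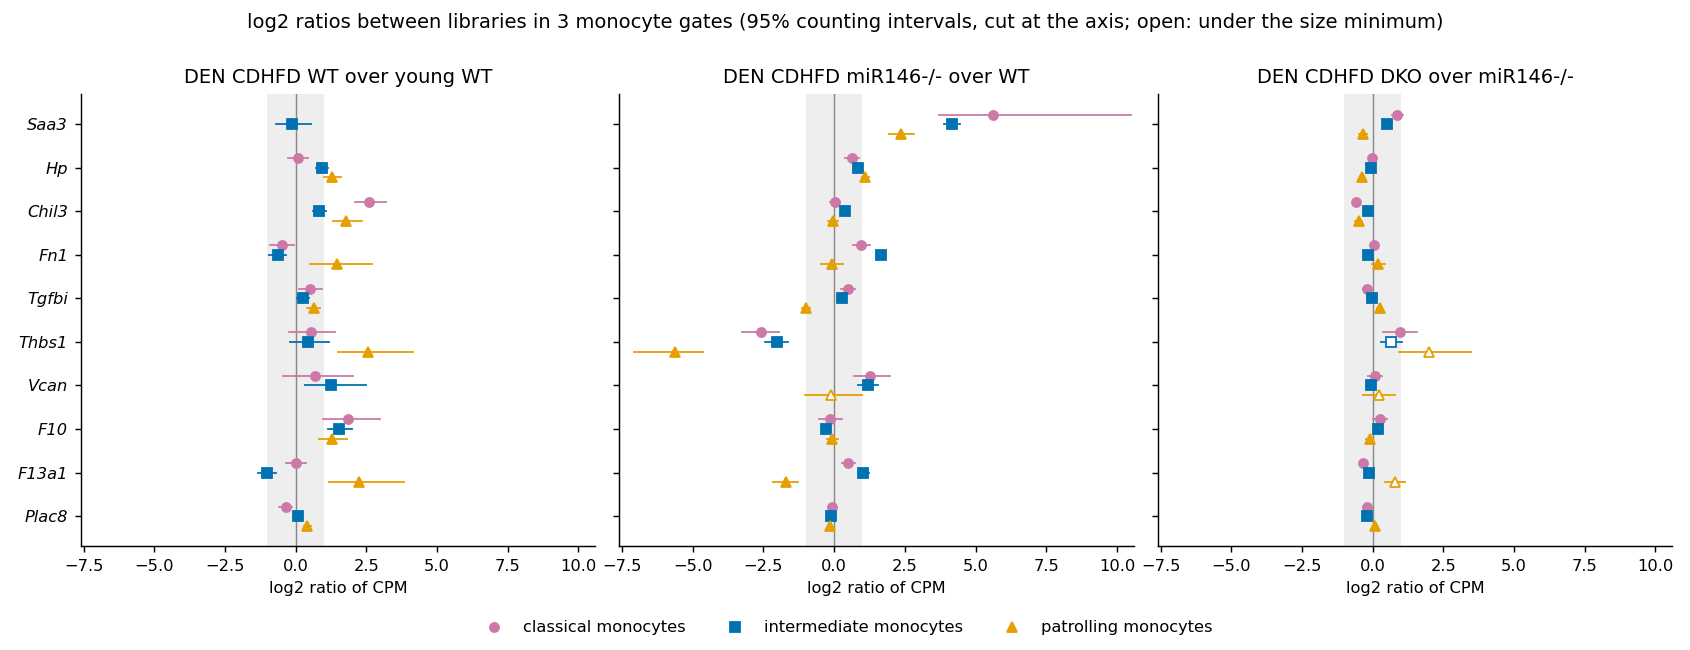
log2 ratio of CPM for each gene in 3 comparisons and 3 monocyte gates, with exact 95% intervals for counting error. The grey band is under 2-fold, open points missed the size minimum, and ratios with a 0 count or with at most 3 UMIs in both libraries are not drawn. Saa3 and Thbs1 in the middle panel lie farthest from 0, and the right panel stays within the band for all filled points.

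The comparison of DEN CDHFD WT with young WT takes age, DEN and diet together. A gene was counted as past 2-fold only if either library reached a minimum of 50 CPM and 20 UMIs. Some genes met it only through the library where they were high. Most members were chosen as leading monocyte genes in these same data. Their counts and medians in each comparison are therefore descriptions, set beside all genes for scale only. In classical monocytes 9 of the 10 genes met that minimum, 2 were higher (Chil3 and F10) and 0 lower, where 7.73% and 4.52% of all 1838 genes at the minimum were higher and lower. Their median log2 ratio was 0.51, against 0.09 for all genes. Intermediate cells had 2 of 10 higher (F10 and Vcan) and 1 lower (F13a1), against 3.07% and 2.81% of 3518 genes, with medians of 0.34 and -0.03. With the top cell of each library left out, intermediate Vcan was under the minimum (45.8 CPM) and F13a1 inside 2-fold (-0.95). Chil3, Thbs1 and Hp were then past 2-fold higher. Patrolling cells had 6 of 8 higher (Thbs1, F13a1, Chil3, Fn1, F10 and Hp) and 0 lower, against 3.23% and 2.15% of 3533 genes, with medians of 1.37 and -0.04. Thbs1, F13a1 and Fn1, with 6, 6 and 9 UMIs in young WT, met the minimum only through DEN CDHFD WT. They could be called only higher. Without the top cell of each library, Fn1 (36.8 CPM) and F13a1 (48.7 CPM) were under the minimum in patrolling cells of DEN CDHFD WT, although their ratios stayed at 1.43 and 2.10. Saa3 and Vcan missed the minimum there. Saa3, with 47 UMIs against 0, was at least 5.77-fold higher over the floor of 3 counts, but 33 of the 47 were in 1 of 123 cells, without which it was at 10.7 CPM. Vcan, with 12 UMIs against 0, was at least 1.47-fold higher.

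Comparing miR146-/- with WT, both after DEN and CDHFD, asks what goes with the loss of miR-146a. In classical cells all 10 genes met the minimum, 2 were higher (Saa3 and Vcan) and 1 lower (Thbs1), where 6.77% and 6.32% of 3262 genes were. The median was 0.49, against 0.06 for all genes. Across settings the count of higher genes ran from 2 to 7. In intermediate cells 4 were higher (Saa3, Fn1, Vcan and F13a1) and 1 lower (Thbs1), against 1.61% and 3.45% of 3425 genes, with medians of 0.61 and 0.03. The higher count there ran from 2 to 5 across settings. In patrolling cells 2 of 9 were higher (Saa3 and Hp) and 2 lower (Thbs1 and F13a1), against 3.62% and 5.7% of 3511 genes, with medians of -0.09 and 0.01. The F13a1 call was lost without the top cell of each library (14.4 against 48.7 CPM, both under the minimum), although its ratio stayed at -1.76.

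Comparing DKO with miR146-/- asks what goes with the further loss of Ccl5. With the main settings no gene was past 2-fold in either direction in the 3 monocyte gates, out of 10 measured in classical, 9 in intermediate and 7 in patrolling cells. Over all genes 1.16% were higher and 0.291% lower of 3434 in classical cells, 0.185% and 0.0616% of 3245 in intermediate cells, and 0.154% and 0.0615% of 3252 in patrolling cells. The member medians were 0.01, -0.08 and -0.11, against 0.00, -0.02 and -0.00. The largest of these ratios, all in classical cells, were Thbs1 at 0.95 (0.35 to 1.58), Saa3 at 0.87 (0.68 to 1.07) and Chil3 at -0.59 (-0.71 to -0.47). These calls depend on the cells kept. Thbs1 was past 2-fold without the top cell of each library (1.12) and by the mean over cells (1.48), and with no upper limit on features both Saa3 (1.24) and Thbs1 (1.31) were. Without the S100a8- and S100a9-rich cells, Saa3 (4.34) and Thbs1 (1.34) were higher and Chil3 (-1.07) lower. Outside monocytes, in C1q-high macrophages, the share of all genes past 2-fold was not computed in any comparison. Calls there have nothing to be read against and only describe the gene. For DKO over miR146-/- the median was 0.16 for the members measured there and 0.06 for 3350 genes. Saa3 was higher. It stood at 378 against 96.4 CPM (1.97, 1.68 to 2.28), from 1063 UMIs in 32 of 225 cells against 103 in 7 of 78. Of the 103, 81 were in 1 cell. Without the top cell of each library the Saa3 ratio was 3.92, with Chil3 also past 2-fold (1.07) and Hp at the line (475 against 237 CPM). In the same macrophages Saa3 was higher in DEN CDHFD WT than in young WT (79 UMIs against 4, the 4 from 1 cell). Thbs1 was lower in miR146-/- than in WT (9 against 68). Both calls were lost without the top cell of each library, as DEN CDHFD WT fell under the minimum (44.3 and 48.8 CPM). The Saa3 counts were then 45 UMIs against 0, and the Thbs1 ratio was -3.52. Hp in DEN CDHFD WT over young WT moved from 0.80 to 2.74 (173 against 23.6 CPM), past 2-fold. The 3 comparisons share libraries, so their ratios are not independent of each other.

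**Figure D5:**
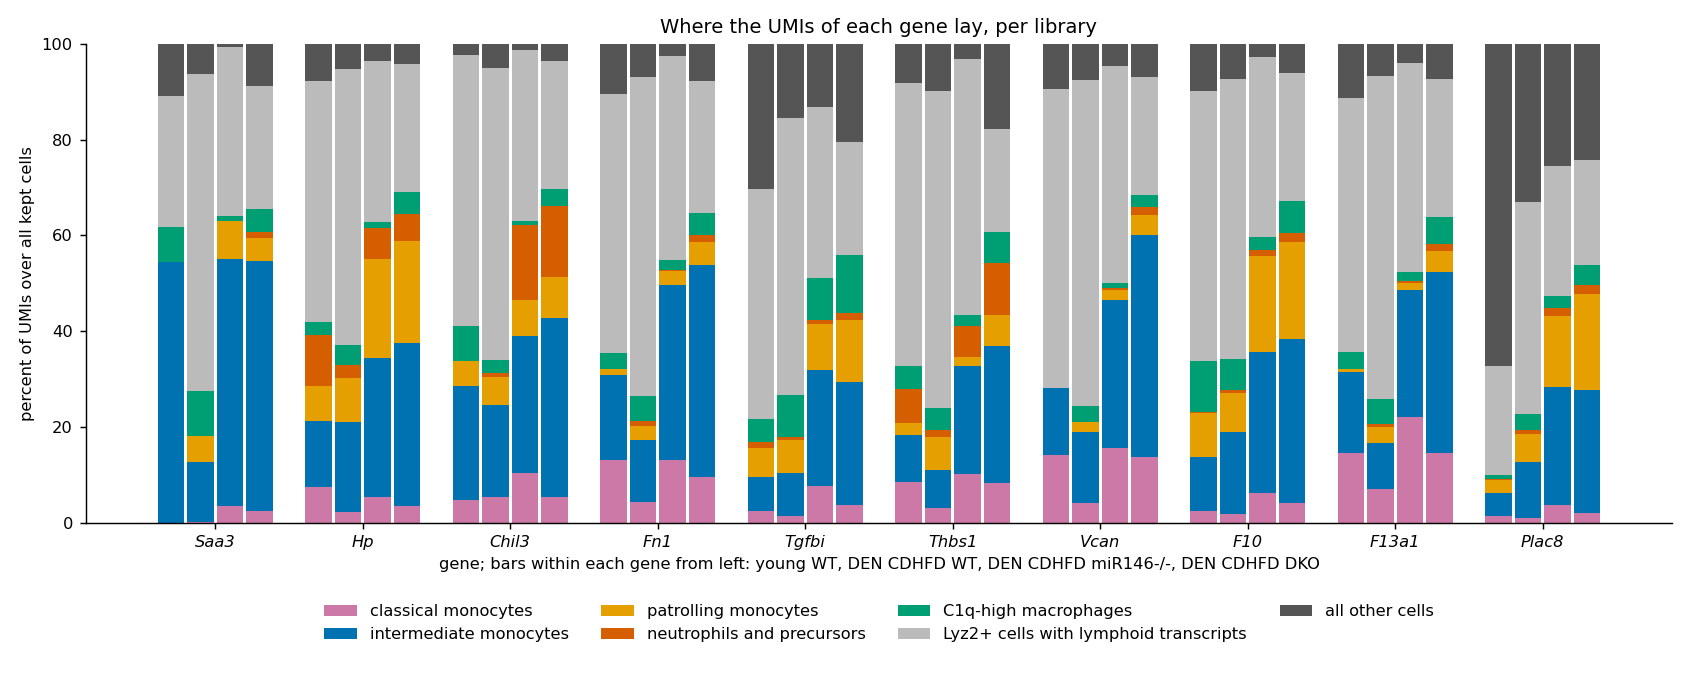
Percent of each gene's UMIs, over all kept cells of a library, that lay in the named classes, with 4 bars per gene. Lyz2+ cells with lymphoid transcripts (light grey) held more of each gene in DEN CDHFD WT than in any other library.

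Over all kept cells, where the number of monocytes counts as well as their content, Saa3 was at 0.656, 10.1, 139 and 235 CPM and Hp at 16.8, 89.6, 329 and 322 CPM. With the main settings, monocytes of the 3 gates made up more cells in the last 2 libraries, but how far this holds depends on the gate. With lymphoid transcripts allowed, classical cells numbered 34, 114, 128 and 68 and intermediate cells 111, 350, 433 and 520. With the gate set after thinning, intermediate cells numbered 16, 40, 38 and 50. Monocytes of the main gates held 54.5%, 18.1%, 62.9% and 59.5% of Saa3 UMIs and 28.6%, 30.2%, 55.1% and 58.9% of Hp UMIs. Classical cells held at most 3.41% of Saa3 UMIs but up to 22.0% of F13a1 and 15.5% of Vcan UMIs, both in miR146-/-. Lyz2+ cells with lymphoid transcripts held 66.4% of Saa3, 68.2% of Vcan and 44.4% of Plac8 UMIs in DEN CDHFD WT, against 25.7%, 24.8% and 21.9% in DKO. Vcan and Fn1 over all kept cells were at 0.763, 6.76, 23.6 and 18.3 CPM and 8.70, 29.2, 103 and 92.7 CPM.

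Single cells often carried several of the 10 genes. At 2000 UMIs the median classical cell had 5, 5, 6 and 6 of them, the intermediate cell 3, 4, 5 and 5, the patrolling cell 1, 2, 2 and 2, and the B cell 0. At least 5 were present in 19.4%, 21.9%, 62.4% and 57.9% of intermediate cells and in no B cell. Spearman correlations between pairs of genes over the Ly6c2+ cells (classical and intermediate together, thinned, 42, 132, 280 and 385 cells) had medians of 0.04, 0.06, 0.04 and 0.05 over 45 pairs, and these cells share a library and a depth. The highest were F13a1 with Hp in young WT (0.60), Fn1 with F13a1 in DEN CDHFD WT (0.47) and miR146-/- (0.40), and Saa3 with Hp in DKO (0.37). Low values from sparse counts say little.

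Across 37 class-by-library sums of at least 50 cells, the genes most like each member in log2(CPM + 1), among 6251 genes, were often other members. Fn1 and F13a1 were each other's nearest (Pearson r = 0.98), as were Chil3 and Hp (0.97), and Vcan was nearest to Saa3 (0.94). Those nearest to Vcan were Fn1, Saa3 and F13a1. Outside the 10, F10 was closest to Pla2g7, C3 and Cebpb (0.97, 0.96 and 0.96), Tgfbi to Lgals3, Csf1r and Anxa5 (0.98, 0.97 and 0.97), Thbs1 to Clec4d, Cxcl2 and Ninj1 (0.94, 0.92 and 0.91) and Plac8 to Tifa, Evi5 and Sh2b2 (0.96, 0.94 and 0.94). The points share libraries and monocyte identity, so these values describe the classes.

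Gene lists around the members were read in the same sums. Of 16 other acute-phase and chitinase-like genes, 3 met the minimum for miR146-/- over WT in intermediate cells, where 1.61% of all genes were higher and 3.45% lower. Lcn2, an iron-chelator-binding protein, was higher at 105 against 2.63 CPM (5.15 on the log2 scale, 3.96 to 7.20), and Hmox1, which degrades haem, lower at 237 against 519 CPM (-1.13, -1.27 to -0.998). Within miR146-/- intermediate cells, Lcn2 was at 419 CPM in the S100a8- and S100a9-rich cells against 54.8 CPM in the rest. Of 20 genes listed under coagulation and fibrinolysis 4 were measured and 2 higher. These were F11r, at 100.3 against 23.0 CPM (2.11, 1.63 to 2.66), and S100a10, a plasminogen receptor subunit, at 489 against 232 CPM (1.08, 0.91 to 1.24). F11r is an adhesion molecule and not a clotting factor, so its place in that list says nothing about coagulation. Matrix genes and receptors had 0 of 17 higher and 2 lower: the scavenger receptor Cd36 (25.5 against 94.0 CPM, -1.88) and osteopontin, Spp1 (57.4 against 191 CPM, -1.73).

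For the same comparison, none of 22 measured upstream receptors and factors was past 2-fold in intermediate cells, with a median of -0.17 against 0.03 for all genes. In classical cells 1 of 21 was higher and 6 lower, against 6.77% and 6.32% of all genes, among them Tgfbr1 (-1.95), the TGF-beta repressor Skil (-1.92) and the NF-kB subunits Relb (-1.66) and Nfkb1 (-1.26), these 4 from 21 to 72 UMIs in the WT sum. Among other classical monocyte genes, Mgst1 was higher in classical cells (426 against 170 CPM), as were S100a8 and S100a9, which were at 1732 and 976 CPM against 0. For DEN CDHFD WT over young WT in classical cells, 1 of 19 measured upstream genes was higher and 3 lower, against 7.73% and 4.52% of all genes. The C/EBP factors went both ways, Cebpb higher at 3053 against 1242 CPM (1.29, 1.05 to 1.55) and Cebpd lower at 96.9 against 211 CPM (-1.11, -2.03 to -0.24). Socs3 (199 against 745 CPM, -1.90) and Klf4 (194 against 437 CPM, -1.17) were also lower.

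With 1 library per group, no difference has a replicate check, and all intervals cover counting error only. Batch, sorting and the mice themselves cannot be told apart from age, treatment or genotype.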

How the data were processed

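CD45+ liver cells of 4 groups of female mice, 1 library each, were measured by 10x Genomics 5′ single-cell RNA-seq. The authors deposited raw counts of UMIs, by gene and by cell, from Cell Ranger (7.0.1 per the file headers) on mm10 (GRCm38), for droplets called as cells. The paper names another version, and no source says if introns were counted. Cells were kept if they had 600 to 6000 features and no more than 5% of UMIs from mitochondrial genes, then classed by marker UMIs and summed by class and library. Sums were scaled to CPM, and log2 ratios used a prior of 0.5 counts, in Python 3.11.15 with NumPy 2.4.6, SciPy 1.17.1, pandas 2.3.3 and matplotlib 3.10.9. Intervals are 95% exact Poisson, Clopper-Pearson or conditional binomial. With 1 library per group no test across mice was possible. The code was tested on simulated data. Alternatives were other cell filters and gates, TMM factors (edgeR 4.0.16 in R 4.3.3), a prior of 5 counts, a mean over cells and thinning depths. Others, named in the closing section, were chosen after seeing the data. Named genes are all 10 members, the 3 genes most like each across sums of at least 50 cells, and up to 4 with the largest ratio past 2-fold from each list. The members and the lists were chosen with earlier results of these data known.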

Additional observations from a re-analysis of the deposited data

How the results depend on the processing

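No paired analysis was possible because each group is 1 library and no label pairs mice. Counts of genes past 2-fold were recomputed under 13 settings in classical and 12 in intermediate monocytes. Of 150 such counts 128 were within 1.5 times the reported count and 22 were not, and no called ratio changed sign. The count of lower genes for miR146-/- over WT was 1 in every setting in both gates. With lymphoid transcripts allowed, DEN CDHFD WT over young WT gave 1 higher and 1 lower in classical and 0 lower in intermediate cells, and miR146-/- over WT 7 higher in classical cells. With the gate set after thinning to 2000 UMIs, classical cells gave 4 higher and 1 lower for DEN CDHFD WT over young WT and 4 higher for miR146-/- over WT, and intermediate cells 1, 2 and 1 higher in the 3 comparisons. For DKO over miR146-/- in classical cells, 2 were higher with no upper limit on features and 1 by the mean over cells. In intermediate cells, DEN CDHFD WT over young WT gave 4 higher and 0 lower by the mean over cells, 0 lower with TMM factors and 1 higher with a prior of 5 counts. The remaining settings, and all those in intermediate cells, were chosen after seeing the data. With classical and intermediate cells together, miR146-/- over WT gave 4 higher. Without cells of at least 10 S100a8 and S100a9 UMIs, DKO over miR146-/- gave 2 higher and 1 lower in classical cells. Without the top cell for each gene, it gave 1 higher in classical cells, and DEN CDHFD WT over young WT gave 4 higher and 0 lower in intermediate cells. The same reading was made of patrolling cells and C1q-high macrophages, outside these counts. The causes were not tested. Of single log2 ratios, 71 of 390 in classical and 63 of 360 in intermediate cells moved past their counting interval, as did 88 of 240 shares of UMIs and 37 of 80 shares of cells. Among the monocyte and C1q-high macrophage sums compared by ratio, depth limits the young classical sum most, where 20 UMIs are 151 CPM.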

Other observations

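In the DKO library Saa3 was also read outside monocytes. The 27 Kupffer cells had 2170.3 CPM, but all 692 UMIs came from 1 cell. In neutrophils 4 of 24 cells had a UMI, at 825 CPM, against 0 UMIs in the 17, 22 and 8 neutrophils of the other libraries. Lyz2+ cells of no other class (59 in DKO) had 1272 CPM. C1q-high macrophages, 225 in DKO, had 378 CPM from 32 cells with a UMI, against 96.4 CPM in miR146-/-.

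Neutrophil precursors numbered 2, 0, 56 and 47 in young WT, DEN CDHFD WT, miR146-/- and DKO. Cells with Negr1 and Fcgr4 numbered 0, 5, 4 and 36. Spp1 in classical monocytes was at 0, 141, 15.2 and 281 CPM.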
